A study of Mus musculus with 3 samples.

Results

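The 10 genes described here encode receptors and ligands of the VEGF and angiopoietin systems in the mouse: the receptors Kdr, Flt1, Flt4, Tek and Tie1, and the ligands Vegfa, Vegfc, Vegfd, Angpt1 and Angpt2. They were chosen as a list of gene names and looked up among the 36167 features of the count matrices, and all 10 were found and passed the filter on low counts. The nuclei came from flash-frozen aortic valve structures of mouse pups on postnatal day 1, of the Scx-EGFP line B6.Cg-Scx<tm1.1(EGFP)Skom, by its name a targeted Scx allele. Each of the 3 samples pooled 22 to 24 aortic roots, and all 3 belong to 1 group, so the comparisons are between kinds of nuclei within the pools and not between conditions.

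VEGF ligands bind receptor tyrosine kinases carried mainly by endothelial cells: KDR is the main signalling receptor for VEGF-A, FLT1 binds VEGF-A tightly but signals weakly and can act as a decoy, and FLT4 is the receptor for VEGF-C and VEGF-D in lymphatic endothelium. TEK is the angiopoietin receptor and TIE1 its co-receptor; ANGPT1 activates TEK and stabilises vessels, while ANGPT2 activates or blocks it depending on the setting. In the heart these systems are known for their part in the growth of coronary and lymphatic vessels, and the leaflets of the aortic valve are themselves covered by endothelium.

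The 250 bases upstream of the receptor genes' starts are shown because all 5 receptors were higher in the endothelial-like class of nuclei than in the mean of the non-endothelial classes. They come from RefSeq (build GRCm38.p6, while the files use GRCm39). The strings CAGGAA and CCGGAA, forms of the motif bound by ETS factors, were searched on both strands, and no match overlapped another in these windows; CAGGAA was in 25.7% and CCGGAA in 12.0% of all 32851 windows of that length. The Tek window (chr4:94739039-94739288, plus strand) held CAGGAA 2 times, the Tie1 window (chr4:118489850-118490099, minus strand) held it 1 time, and the Kdr window (chr5:75978456-75978705, minus strand) held CCGGAA 1 time, each on the strand opposite to the gene. The Flt1 and Flt4 windows held neither string. The windows with a match are printed 5′ to 3′ in the direction of the gene, with the matches in capitals as they read on the gene's strand (TTCCTG or TTCCGG).
Tek: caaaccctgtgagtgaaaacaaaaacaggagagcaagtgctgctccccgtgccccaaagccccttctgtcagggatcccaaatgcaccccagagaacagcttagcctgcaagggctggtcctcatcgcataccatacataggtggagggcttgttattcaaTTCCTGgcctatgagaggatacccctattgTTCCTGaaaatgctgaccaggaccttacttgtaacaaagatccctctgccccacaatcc
Tie1: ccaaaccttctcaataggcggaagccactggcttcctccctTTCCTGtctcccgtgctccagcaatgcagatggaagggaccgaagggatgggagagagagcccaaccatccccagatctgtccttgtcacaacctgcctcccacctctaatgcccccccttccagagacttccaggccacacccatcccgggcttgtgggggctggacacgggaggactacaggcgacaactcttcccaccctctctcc
Kdr: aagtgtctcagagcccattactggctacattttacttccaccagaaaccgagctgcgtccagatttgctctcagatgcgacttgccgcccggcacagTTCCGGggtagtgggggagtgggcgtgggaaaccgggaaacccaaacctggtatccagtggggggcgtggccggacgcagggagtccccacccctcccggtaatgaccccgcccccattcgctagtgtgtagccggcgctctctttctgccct

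After nuclei with fewer than 1000 unique molecular identifiers (UMIs), over 5% mitochondrial UMIs or a high doublet score were left out, 13182 of the 21140 deposited nuclei remained: 6473, 3098 and 3611 in pools 1, 2 and 3, with 34053290, 17557338 and 18344733 UMIs. Pairs of pools shared 44 to 99 barcodes, 16 to 33 of them among the analysed nuclei. Clusters were made without the 10 genes and named from marker lists, giving 12 named classes and 1114 nuclei in unnamed clusters. The endothelial-like class (2725 nuclei) held all 8 endothelial markers, at a summed 4039 to 4149.9 CPM (UMIs per 1000000 UMIs) in the pools, against 40.7 to 689 CPM outside the endothelial and lymphatic endothelial classes.

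A class level below is the UMIs of the gene over all UMIs of the class in 1 pool, in CPM, given by pool or as mean ± SD over 3 pools; nuclear RNA was measured. Tests were edgeR quasi-likelihood tests on sums per pool and class, with the pool as a block and Benjamini-Hochberg adjustment over all genes tested (threshold 0.05). A difference is the log2 fold change of that fit. Its standard error (SE) was derived, as the size of that change divided by the square root of the test's F statistic. The p-values measure the spread left between the sums of these 3 pools after the block, shared over all classes or subsets of a fit. Other genes of the same nuclei made the classes, so the tests show how the 10 genes are spread over those classes. A level does not tell fewer nuclei with the transcript from fewer transcripts per nucleus, and the share of nuclei with a UMI, after each nucleus was thinned to 1000 UMIs, stands beside it.

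All 5 receptors were higher in the endothelial-like class than in the mean of the non-endothelial classes, and of the 5 ligands Vegfc was. In that contrast 6 of the 10 genes were higher and 0 lower, while 22% of all 13566 genes tested were higher and 8.45% lower. The median difference was 1.75 over the 10 genes, 3.55 over the receptors and 0.22 over the ligands, against 0.20 over all genes tested. The median over all genes moved to 0.10 with RLE size factors and to −0.05 with DESeq2, and of the genes called 47.0% were higher by DESeq2 and 63.1% with RLE, against 72.2% by edgeR. Vegfc differed by 0.92 (SE 0.17, edgeR adjusted p = 2.17e-05). Set against the median of the edgeR, RLE and DESeq2 fits, it was higher by 0.71, 0.71 and 0.87. The other 4 ligands were not called, and Vegfd, at −0.74 (SE 0.20, adjusted p = 2.88e-03), and Angpt2, at −0.68 (SE 0.23, adjusted p = 0.0193), were lower in the edgeR fit once the erythroid-like sums, in which Angpt1 and Angpt2 had no UMI, were left out; in that fit 22.9% of all genes were higher and 18% lower.

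Tie1 was read at 394, 372 and 327 CPM in the endothelial-like class of pools 1, 2 and 3 and at 398, 329 and 210.2 CPM in the lymphatic endothelial-like class. These classes overlapped, and the highest pool value of any other class was 50.7 CPM. The endothelial-like class differed from the non-endothelial classes by 4.58 (SE 0.20, edgeR adjusted p = 9.83e-22). A Tie1 UMI was found in 29.8% ± 3.44 (SD, n = 3) of thinned endothelial-like nuclei (74.4% ± 9.99 unthinned), against 1.60% ± 0.855 of cardiomyocyte-like nuclei (4.73% ± 2.19 unthinned), which should lack it; the median depths were 4452 and 4956 UMIs.

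Tek stood at 1148, 1099.9 and 1155 CPM in the endothelial-like class. The next in order was the lymphatic endothelial-like class, at 529, 533 and 511 CPM, then the mesothelial-like (266, 287 and 346 CPM) and fibroblast-like classes (299, 249.8 and 292 CPM), which overlapped each other and stood apart from all classes below them. The endothelial-like class differed from the non-endothelial classes by 3.55 (SE 0.14, edgeR adjusted p = 6.41e-23). A Tek UMI was present in 61.4% ± 1.53 of thinned endothelial-like nuclei (92.3% ± 2.25 unthinned) and in 3.08% ± 0.902 of cardiomyocyte-like nuclei (8.41% ± 2.85 unthinned).

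Flt1 stood at 759, 773 and 859 CPM in the endothelial-like class, and the highest pool value of any other class was 188 CPM. The macrophage-like, pericyte-like and lymphatic endothelial-like classes came next and overlapped. The endothelial-like class differed from the non-endothelial classes by 3.90 (SE 0.18, edgeR adjusted p = 4.85e-21), and 46.5% ± 2.49 of its thinned nuclei held a UMI (81.2% ± 3.94 unthinned) against 1.99% ± 0.779 of cardiomyocyte-like nuclei (6.35% ± 2.57 unthinned).

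Kdr had another order of classes. It was highest in the lymphatic endothelial-like class, at 368, 549.8 and 259 CPM, followed by the mesothelial-like class at 96.9, 104 and 159 CPM and the endothelial-like class at 86.7, 93.6 and 119 CPM. The last 2 overlapped, and both stood apart from the remaining classes, whose highest pool value was 38.0 CPM. The endothelial-like class was higher than the mean of the non-endothelial classes by 3.16 (SE 0.21, edgeR adjusted p = 4.64e-16), although its Kdr level was below that of the mesothelial-like class, 1 of those classes, in each pool.

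Flt4 was read at 548, 621 and 350.3 CPM in the lymphatic endothelial-like class and at 25.6, 27.1 and 26.3 CPM in the endothelial-like class. The mesothelial-like class, at 27.2, 23.3 and 18.1 CPM, overlapped the endothelial-like one. Against the non-endothelial classes the endothelial-like class differed by 2.39 (SE 0.24, edgeR adjusted p = 4.69e-11). Thinned nuclei with a Flt4 UMI made up 44.0% ± 7.58 of the lymphatic class (79.7% ± 7.40 unthinned), 2.33% ± 0.334 of the endothelial-like class (10.4% ± 2.48 unthinned) and 0.446% ± 0.382 of cardiomyocyte-like nuclei (1.42% ± 0.816 unthinned).

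**Figure D1:**
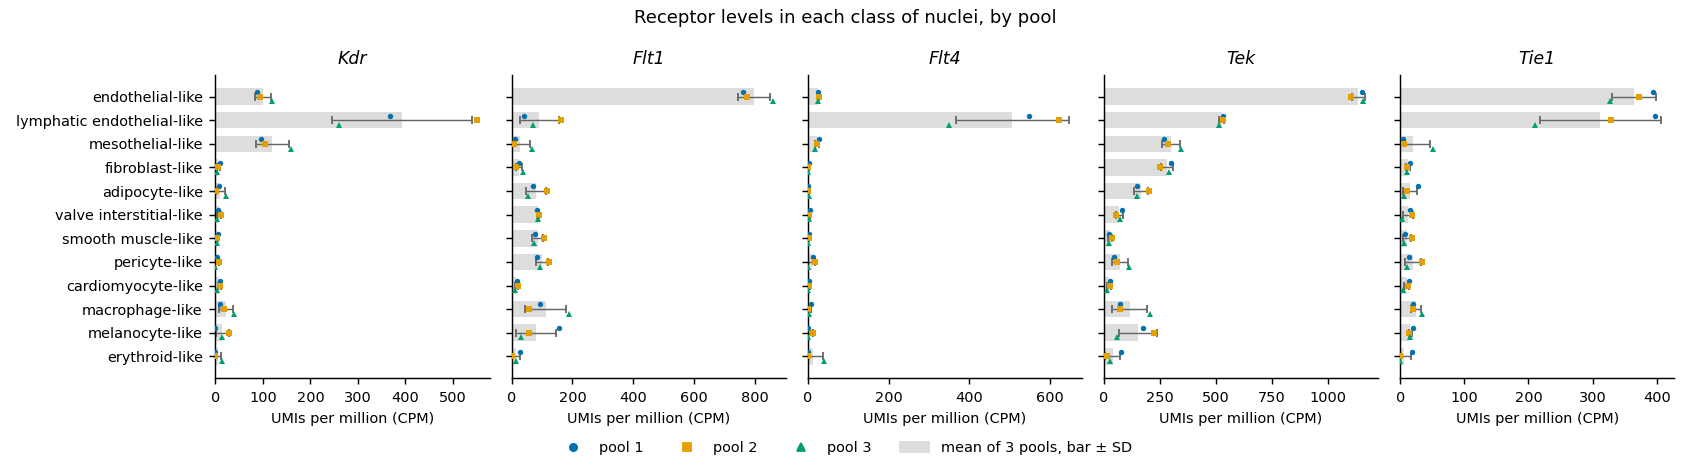
Level of each receptor (CPM of the class, linear axis from 0) in the 12 classes of nuclei; symbols are the 3 pools, grey bars their mean and whiskers 1 SD, drawn no lower than 0. Flt1, Tek and Tie1 are high in the endothelial-like class and Flt4 in the lymphatic endothelial-like class, and the Kdr values of the mesothelial-like and endothelial-like classes overlap.

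The lymphatic endothelial-like class (116 nuclei, 43, 42 and 31 in the pools) was set against the endothelial-like class directly. Of the 10 genes 3 were higher and 4 lower in the lymphatic nuclei, while 6.32% of all genes were higher and 8.29% lower. In the edgeR fit Flt4 differed by 4.21 (SE 0.23, adjusted p = 7.08e-18), Kdr by 1.95 (SE 0.24, adjusted p = 5.08e-08) and Angpt2 by 2.02 (SE 0.42, adjusted p = 4.84e-04). Without pool 2 the Angpt2 difference was 1.58 with an adjusted p of 0.0603. The lower genes were Flt1 at −3.12 (SE 0.37, adjusted p = 1.71e-08), Vegfc at −2.54 (SE 0.35, adjusted p = 4.20e-07) and Tek at −1.18 (SE 0.24, adjusted p = 2.67e-04). Angpt1 was lower too, with 0, 7 and 1 UMIs in the lymphatic nuclei of pools 1, 2 and 3; its fitted difference lay between −4.31 and −1.56 over the 15 alternatives, with adjusted p-values of at most 0.0420, and was −2.31 (SE 0.66, adjusted p = 0.0122) in the edgeR fit.

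Tie1 differed between the 2 endothelial classes by −0.28, with an edgeR adjusted p of 0.619. Its lymphatic level was 101%, 88.5% and 64.3% of the endothelial-like level in pools 1, 2 and 3, whereas that of Tek was 46.1%, 48.4% and 44.3% and that of Flt1 5.44%, 21.1% and 8.16%. Vegfd, at 26.3, 40.7 and 14.0 CPM in lymphatic against 11.2, 11.4 and 15.6 CPM in endothelial-like nuclei, differed by 1.17 with an adjusted p of 0.0710; the adjusted p was 0.0149 without pool 3 and 0.0369 with a 10% mitochondrial limit. Vegfa differed by 0.29 with an adjusted p of 0.596. The summed endothelial markers of the lymphatic nuclei were 51.9% to 67.9% of those of endothelial-like nuclei.

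**Figure D2:**
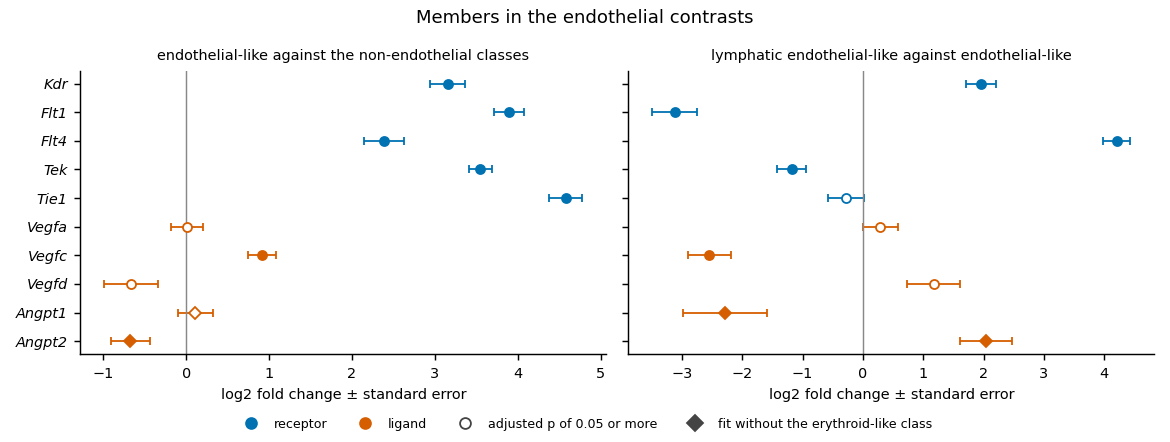
Log2 fold change of the 10 genes (edgeR quasi-likelihood fit), with the SE derived from the F statistic. The left panel shows endothelial-like nuclei against the non-endothelial classes, the right panel lymphatic endothelial-like against endothelial-like nuclei. Open symbols have an adjusted p of 0.05 or more, and diamonds come from the fit without the erythroid-like sums. The 5 receptors lie between 2.39 and 4.58 on the left, and on the right Flt4 at 4.21 and Flt1 at −3.12 are the farthest apart.

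Outside the endothelial classes, the receptors were not spread alike. The mesothelial-like class (368 nuclei, all 6 mesothelial markers present at a summed 4505 to 5450.4 CPM) was tested against the mean of the other classes, and 3 of the 10 genes were higher and 3 lower, while 31.5% of all genes were higher and 15.4% lower. With the erythroid-like sums left out, 3 were higher and 6 lower, while 30.7% of all genes were higher and 26.7% lower. Without pool 1 the counts were 3 and 1. In the edgeR fit with those sums Kdr differed by 3.09 (SE 0.23, adjusted p = 7.28e-15), Flt4 by 1.77 (SE 0.29, adjusted p = 2.56e-06) and Tek by 1.38 (SE 0.17, adjusted p = 8.32e-09). Flt1 was lower, at −1.83 (adjusted p = 2.60e-04), a call that was lost without pool 1 (−1.16, adjusted p = 0.206). Vegfc was lower, at −0.95 (SE 0.20, adjusted p = 1.18e-04) without the erythroid-like sums, and differed by −0.76 with them; that call was lost without pool 1 (adjusted p = 1.00), where the erythroid-like sums kept had no Vegfc UMI.

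Set against the endothelial-like level of the same pool, the mesothelial-like class held 111% to 133% of Kdr, 68.8% to 106% of Flt4 and 23.1% to 29.9% of Tek, but 1.13% to 7.79% of Flt1, 0.987% to 15.5% of Tie1 and 1.29% to 8.11% of the summed endothelial markers. Thinned mesothelial-like nuclei held a Kdr UMI in 9.62% ± 2.36 of cases (43.6% ± 3.92 unthinned, median depth 9842.5 UMIs), endothelial-like nuclei in 7.50% ± 1.28 (22.8% ± 2.91 unthinned) and cardiomyocyte-like nuclei in 1.03% ± 0.284 (3.78% ± 1.95 unthinned). The lymphatic endothelial marker list, of 7 genes, summed to 1848 to 2345 CPM in the mesothelial-like class with Mmrn1 at 0, and its part in the Flt4 level was not tested.

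In the fibroblast-like class (1096 nuclei) Tek was higher than in the mean of the other classes, by 1.08 (SE 0.17, edgeR adjusted p = 4.67e-06). Its level there was 26.0%, 22.7% and 25.3% of the endothelial-like level in pools 1, 2 and 3, and 21.6% ± 1.71 of thinned nuclei held a UMI (49.3% ± 3.43 unthinned). In the same class Tie1 stood at 2.93% to 4.07%, Flt1 at 1.91% to 4.22% and the summed endothelial markers at 5.35% to 5.65% of their endothelial-like levels.

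The endothelial-like and lymphatic endothelial-like nuclei were clustered again without the 10 genes into 9 subsets, of which 7 had at least 20 nuclei in each pool and were tested over 9615 genes, each against the mean of the other subsets. The subsets are named by their leading genes. In that led by Pcdh17 and Rgcc 6 of the 7 capillary markers (Cd36, Fabp4, Rgcc, Car4, Gpihbp1 and Cd300lg) were higher, in that led by Lrp1b and Mannr 5 of the 7 arterial markers (Gja5, Sox17, Hey1, Sema3g and Bmx), and in that led by Ccl21a and Reln 6 of the 7 lymphatic markers. Tie1 was called in none of the 7 subsets, with differences from −0.26 to 0.20 and edgeR adjusted p-values of at least 0.102. Each of the other 9 genes was called in at least 1, and the share of all 9615 genes called in at least 1 subset was not counted. In the 4 settings that clustered the nuclei anew, Tie1 was called in 2 to 4 of 8 to 10 subsets, with differences from −1.08 to 0.41. The markers of other lists that were higher are given for each subset, and their part in the results was not tested.

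**Figure D3:**
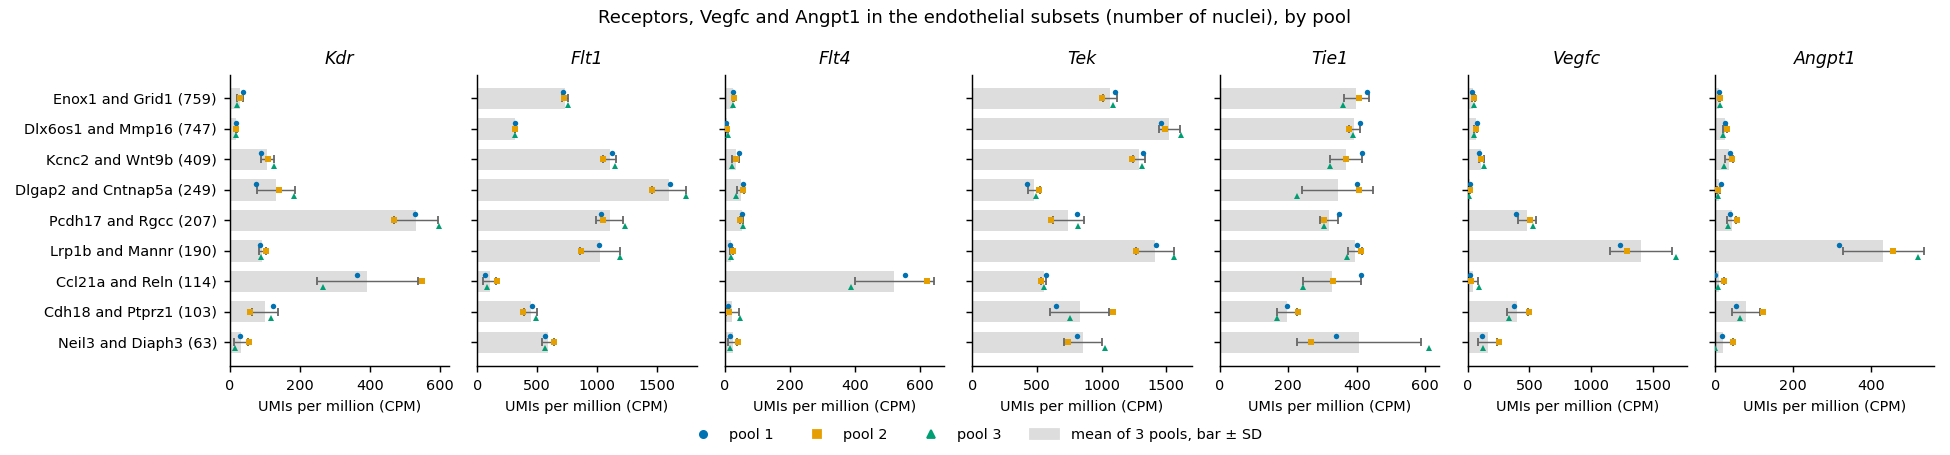
Level (CPM of the subset, linear axis from 0) of the 5 receptors, Vegfc and Angpt1 in the 9 endothelial subsets, with the number of nuclei in brackets; symbols are the 3 pools, grey bars their mean and whiskers 1 SD. Kdr is highest in the Pcdh17 and Ccl21a subsets, Flt1 in the Dlgap2 subset and Vegfc and Angpt1 in the Lrp1b subset, while the mean Tie1 levels of the 7 tested subsets lie between 319 and 399 CPM.

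In the capillary-like subset led by Pcdh17 and Rgcc (207 nuclei), Kdr reached 527, 470.0 and 596 CPM and overlapped only the lymphatic subset (363, 549.8 and 266 CPM). Of the 10 genes 3 were higher and 1 lower in this subset, while 15.6% of all genes were higher and 9.65% lower. In the edgeR fit Kdr differed by 2.66 (SE 0.14, adjusted p = 2.89e-16), Vegfc by 2.48 (SE 0.14, adjusted p = 9.59e-16) and Flt1 by 0.84 (SE 0.10, adjusted p = 6.19e-08). Tek was lower, at −0.41 (adjusted p = 1.06e-03), which was lost without pool 2 (−0.31, adjusted p = 0.0715). A Kdr UMI was found in 37.2% ± 2.63 of its thinned nuclei (78.4% ± 1.96 unthinned) and in 1.69% ± 0.648 of those of the subset led by Dlx6os1 and Mmp16 (7.42% ± 1.71 unthinned). All 7 cardiomyocyte markers were higher in this subset, at a summed 2146 to 4718 CPM against at most 1721 CPM in the other 6 tested, as were Robo4 and Cyyr1 (endothelial), Myocd (smooth muscle), Abcc9 (pericyte), Wt1 (mesothelial), Pparg and Lipe (adipocyte) and Nr2f2 (venous).

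In the arterial-like subset led by Lrp1b and Mannr (190 nuclei) 3 of the 5 ligands were higher, and so were the markers Cyyr1 (endothelial), Wt1 (mesothelial), Hba-a1, Hba-a2 and Hbb-bs (erythroid) and Stmn2 (neuron). The 5 erythroid markers summed to 398 to 1936 CPM here and to 233 to 1206 CPM in the other 6 subsets tested. Vegfc stood at 1229, 1289 and 1687 CPM, and the highest pool value of any other subset was 531 CPM. Angpt1 stood at 319, 458 and 522 CPM, and the highest pool value of any other subset was 122 CPM. Of the 10 genes 5 were higher and 1 lower, while 12.6% of all genes were higher and 10.4% lower. In the edgeR fit Vegfc differed by 4.39 (SE 0.12, adjusted p = 1.42e-24), Angpt1 by 4.46 (SE 0.17, adjusted p = 1.13e-20) and Vegfa by 1.28 (SE 0.20, adjusted p = 7.89e-06). Flt1 (0.81) and Tek (0.78) were also higher, with adjusted p-values of 2.33e-07 and 6.81e-09. Flt4 was lower, at −1.15 (adjusted p = 6.61e-03), a call lost without pool 1 (−0.93, adjusted p = 0.135) and without the highest doublet scores (−0.52, adjusted p = 0.375).

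A Vegfc UMI was present in 67.4% ± 7.53 of the thinned nuclei of this arterial-like subset (91.8% ± 3.37 unthinned), against 1.87% ± 0.748 of those led by Dlgap2 and Cntnap5a (6.38% ± 4.68 unthinned). For Angpt1 the share was 27.3% ± 3.31 (62.3% ± 7.29 unthinned), against 0.760% ± 0.180 in the subset led by Enox1 and Grid1 (2.66% ± 0.687 unthinned). The median depths of the 7 tested subsets lay between 4009 and 5217 UMIs.

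The subset led by Dlgap2 and Cntnap5a (249 nuclei) had the highest Flt1, at 1614, 1460.4 and 1743 CPM, apart from all others. The markers Nfatc1 (endocardial), Prox1 (lymphatic), Pdgfra and Dcn (fibroblast), Postn (valve interstitial), Cd247 (lymphocyte) and Mitf (melanocyte) were higher in it. Here 2 of the 10 genes were higher and 4 lower, while 11.3% of all genes were higher and 11.2% lower. In the edgeR fit Flt1 differed by 1.46 (SE 0.10, adjusted p = 3.83e-14), and Tek, at 424, 515 and 489 CPM below every pool of the other subsets, by −1.17 (SE 0.10, adjusted p = 2.76e-11). Vegfc, at 21.7, 17.5 and 7.76 CPM, differed by −3.01 (SE 0.28, adjusted p = 1.68e-10). Angpt2, at 55.9, 17.5 and 46.6 CPM, was higher by 1.75 (adjusted p = 9.44e-04), and this call was lost without pool 1 (1.17, adjusted p = 0.209). The lower Angpt1 (−1.76) was lost without pool 2 (−1.15, adjusted p = 0.215), and the lower Vegfa (−0.65, adjusted p = 0.0472) under 7 of 9 alternatives.

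The subset led by Dlx6os1 and Mmp16 (747 nuclei) had the highest mean Tek, at 1460.1, 1491 and 1615 CPM, overlapping the arterial-like subset (1418, 1264 and 1561 CPM), and Cytl1 (endocardial) and Bmx (arterial) were higher in it. In it 1 of the 10 genes was higher and 4 lower, while 13.6% of all genes were higher and 8.43% lower. In the edgeR fit Tek differed by 0.90 (SE 0.08, adjusted p = 2.85e-11), and all 3 VEGF receptors were lower: Flt4 at −3.00 (SE 0.25, adjusted p = 1.54e-11), Kdr at −2.85 (SE 0.22, adjusted p = 2.08e-12) and Flt1 at −1.15 (SE 0.11, adjusted p = 6.24e-10). Vegfc was lower, at −0.62 (adjusted p = 5.89e-03), a call lost without pool 3 (−0.38, adjusted p = 0.1).

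The other large subset, led by Enox1 and Grid1 (759 nuclei), in which Emcn (endothelial), Npr3 and Plvap (endocardial), Kit (mast cell) and Vcam1 (venous) were higher, had 1 gene higher and 5 lower, while 15.3% of all genes were higher and 16.1% lower. Kdr, at 37.7, 30.2 and 20.9 CPM, differed by −1.99 (SE 0.20, edgeR adjusted p = 1.38e-09). Vegfc (−1.38, adjusted p = 4.41e-07) and Vegfa (−1.11, adjusted p = 3.06e-05) were lower in the same fit. The lower Angpt1 (−1.70) was lost without pool 2 (−1.38, adjusted p = 0.0674). The lower Flt4 (−0.72) was lost without pool 1 (−0.71, adjusted p = 0.0623) or pool 2 (−0.65, adjusted p = 0.0899) and turned to 0.0537 (adjusted p = 0.887) without the highest doublet scores. The higher Tek (0.26) was lost without the replicate block (0.26, adjusted p = 0.0790), without pool 1 (0.23, adjusted p = 0.198) and without the highest doublet scores (0.11, adjusted p = 0.404).

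In the subset led by Kcnc2 and Wnt9b (409 nuclei), where 3 of the 6 endocardial markers (Npr3, Tmem108 and Wnt9b) were higher, as were Lum (fibroblast), Hapln1 (valve interstitial), Aqp1 (capillary) and Nr2f2 (venous), Flt1 (0.87, edgeR adjusted p = 1.06e-08) and Tek (0.54, adjusted p = 3.13e-06) were the genes called, both higher, while 13.4% of all genes were higher and 7.19% lower. In the lymphatic subset led by Ccl21a and Reln (114 nuclei), 4 genes were higher and 4 lower, while 12.6% of all genes were higher and 10% lower, and Robo4 (endothelial), Nfatc1 (endocardial), Smtn (smooth muscle), Stmn2 (neuron), Pparg (adipocyte), Gpihbp1 (capillary) and Nr2f2 and Ephb4 (venous) were higher too. Flt4 differed there by 4.33, Kdr by 2.21, Angpt2 by 2.32 and Flt1 by −3.06. The higher Vegfd (1.30, adjusted p = 0.0445) was lost without pool 1 (1.40, adjusted p = 0.101), without pool 2 (0.93, adjusted p = 0.420) and without the replicate block (1.29, adjusted p = 0.0527), and the lower Angpt1 (−1.71) without pool 1 (−0.98, adjusted p = 0.203).

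Among whole classes, the ligands had their highest mean level in classes other than the endothelial ones. The arterial-like endothelial subset had higher means of Vegfc (1402 CPM) and Angpt1 (433 CPM) than any whole class. Cardiomyocyte-like nuclei (3066) held the highest Vegfa, the main ligand of KDR, at 186, 167 and 124 CPM. Valve interstitial-like nuclei followed at 112, 110.1 and 99.6 CPM, without overlap, and adipocyte-like nuclei, at 144, 89.8 and 47.3 CPM, overlapped both. Against the mean of the other classes Vegfa was higher in cardiomyocyte-like nuclei by 2.34 (SE 0.13, edgeR adjusted p = 1.09e-18) and in valve interstitial-like nuclei by 1.39 (SE 0.16, adjusted p = 3.82e-09). The adipocyte-like class (121, 63 and 62 nuclei in the pools) depended on the clustering: with resolution 0.5, a 10% mitochondrial limit, doublets kept or a 500 UMI minimum it held 56 to 70 nuclei, 10 of them in pool 2 and 1 to 2 in pool 3, and was too small to test, so its calls for Vegfa and for Vegfc, Vegfd and Angpt1 were run under 11 of the 15 alternatives. The higher Vegfa level in adipocyte-like nuclei (1.13) was lost without pool 1 (0.70, adjusted p = 0.0650). It was low in the mesothelial-like class, at 10.5, 14.5 and 9.05 CPM, a difference of −2.05 (adjusted p = 1.79e-04), or −2.30 (SE 0.23, adjusted p = 3.17e-10) without the erythroid-like sums. With those sums the call was lost without pool 2 (adjusted p = 1.00), where the erythroid-like sums kept had no Vegfa UMI.

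Thinned cardiomyocyte-like nuclei held a Vegfa UMI in 14.1% ± 1.97 of cases (48.0% ± 6.44 unthinned), against 3.96% ± 1.36 of endothelial-like nuclei (17.6% ± 5.19 unthinned). The cardiomyocyte-like cluster led by D830005E20Rik and Fgf13 had 255, 209 and 147 CPM, and the shallow one led by Mb and Myl3 (736 nuclei, median 2270.5 UMIs) had 56.6, 82.7 and 87.5 CPM. The valve interstitial-like cluster led by Rmst and Rnf43 stood at 168, 159.5 and 162 CPM, apart from the other, led by Ctnna2 and Abi3bp, at 73.9, 82.4 and 59.3 CPM. Differences between clusters of a class have no test here.

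In cardiomyocyte-like nuclei 3 of the 10 genes were higher and 5 lower than in the mean of the other classes, while 31.1% of all genes were higher and 14.4% lower. In valve interstitial-like nuclei 4 were higher and 3 lower (19.5% and 7.46% of all genes), in lymphatic endothelial-like nuclei 5 and 1 (13.1% and 6.93%), in endothelial-like nuclei 6 and 0 (21.2% and 7.36%), in fibroblast-like nuclei 5 and 3 (16.4% and 5.18%), in adipocyte-like nuclei 4 and 1 (15.9% and 4.19%) and in smooth muscle-like nuclei 1 and 4 (21.9% and 9.86%). Leaving out pool 1 or pool 3 moved some of these counts by over 1.5 times. Without pool 1, the genes higher and lower were 2 and 3 in cardiomyocyte-like, 3 and 1 in valve interstitial-like, 5 and 0 in lymphatic endothelial-like and 2 and 0 in adipocyte-like nuclei, where Angpt1 (1.26, adjusted p = 0.191), Vegfa and Flt4 were lost. Without pool 3, they were 4 and 1 in valve interstitial-like, 7 and 1 in endothelial-like, 4 and 0 in adipocyte-like and 2 and 2 in smooth muscle-like nuclei. The lower Flt4 in cardiomyocyte-like nuclei turned to 0.16 without pool 3, where the erythroid-like sums kept had no Flt4 UMI, and was −1.05 (SE 0.40, edgeR adjusted p = 0.0234) without those sums. Angpt1 and Angpt2 had no UMI in erythroid-like nuclei of any pool. With those sums left out, 2 genes were higher and 7 lower in cardiomyocyte-like nuclei (30% and 27.7% of all genes). The same counts were 4 and 4 (17.2% and 13.7%) in valve interstitial-like, 5 and 2 (13.1% and 10.8%) in lymphatic endothelial-like and 6 and 2 (21.3% and 14.3%) in endothelial-like nuclei. They were 4 and 4 (15% and 9.5%) in fibroblast-like, 4 and 1 (13.5% and 8.74%) in adipocyte-like and 1 and 7 (21.9% and 19.2%) in smooth muscle-like nuclei.

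Vegfc, a ligand of FLT4, had overlapping levels in fibroblast-like (229, 232 and 266 CPM), adipocyte-like (164, 227 and 287 CPM), valve interstitial-like (209, 197 and 264 CPM) and endothelial-like nuclei (179, 219 and 243 CPM). Melanocyte-like nuclei, too few to test, overlapped them at 181, 306 and 133 CPM. Against the mean of the other classes Vegfc was higher by 1.27 (SE 0.17, edgeR adjusted p = 1.15e-07) in fibroblast-like, 1.08 (SE 0.20, adjusted p = 5.41e-05) in adipocyte-like, 1.18 (SE 0.17, adjusted p = 3.61e-07) in valve interstitial-like and 1.08 (SE 0.16, adjusted p = 7.55e-07) in endothelial-like nuclei. The call in cardiomyocyte-like nuclei (0.47, adjusted p = 0.0267) was lost under 6 of 15 alternatives. Thinned nuclei with a UMI made up 20.4% ± 1.17 of fibroblast-like (42.8% ± 3.30 unthinned), 12.3% ± 1.18 of endothelial-like (26.8% ± 0.949 unthinned) and 9.11% ± 1.11 of cardiomyocyte-like nuclei (31.7% ± 2.12 unthinned). The cardiomyocyte-like cluster led by Erc2 and Lrrc4c held 229.8, 242 and 240.3 CPM, against 49.9 to 182 CPM in the pools of the other 4 cardiomyocyte-like clusters.

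Vegfd, the other ligand of FLT4, stood at 57.7, 66.9 and 34.2 CPM in fibroblast-like and 44.0, 40.6 and 63.1 CPM in adipocyte-like nuclei, which overlapped, and at 31.0, 31.2 and 26.7 CPM in valve interstitial-like nuclei. It was higher than in the mean of the other classes by 1.61 (SE 0.20, edgeR adjusted p = 3.98e-08), 1.36 (SE 0.28, adjusted p = 3.36e-04) and 0.72 (SE 0.23, adjusted p = 0.0151) in these, the last lost without pool 1 (1.25, adjusted p = 0.128), where the erythroid-like sums kept had no Vegfd UMI, or pool 2 (0.77, adjusted p = 0.0585), and 0.63 (SE 0.20, adjusted p = 0.0145) without those sums. Thinned fibroblast-like nuclei held a UMI in 4.74% ± 3.17 of cases (13.6% ± 5.93 unthinned) and cardiomyocyte-like nuclei in 0.752% ± 0.446 (2.72% ± 0.881 unthinned). The valve interstitial-like clusters stood apart here too, with 57.4, 62.0 and 54.1 CPM in that led by Rmst and 12.9, 13.9 and 9.03 CPM in that led by Ctnna2.

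**Figure D4:**
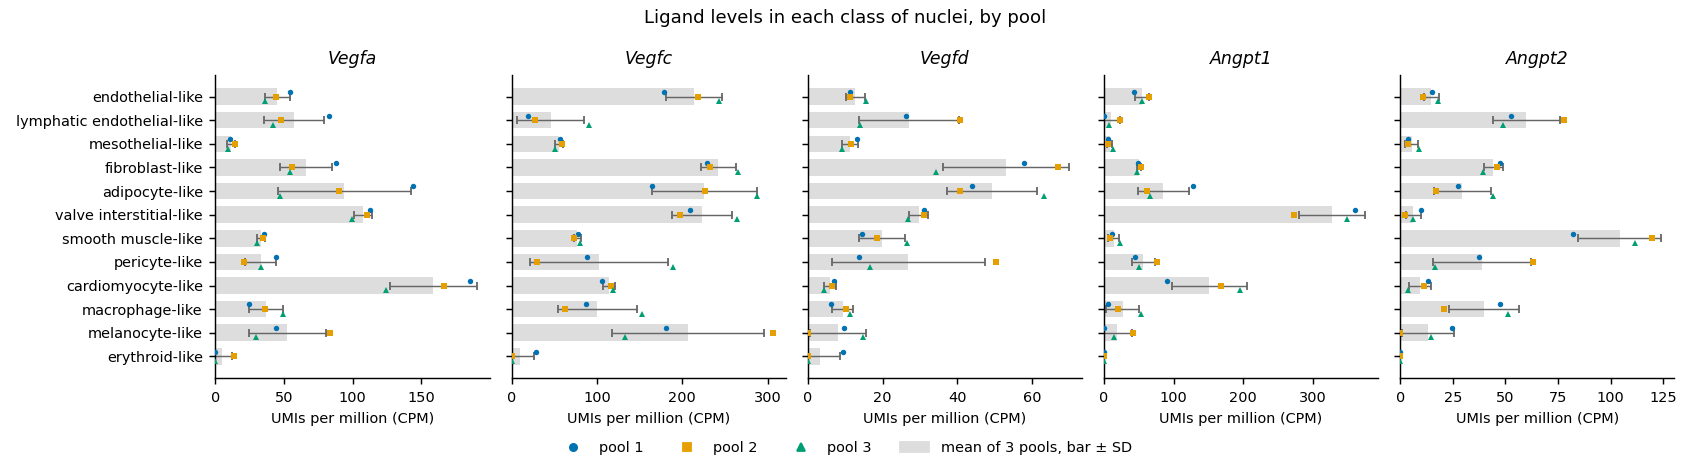
Level of each ligand (CPM of the class, linear axis from 0) in the 12 classes of nuclei; symbols are the 3 pools, grey bars their mean and whiskers 1 SD, drawn no lower than 0. Vegfa is highest in cardiomyocyte-like, Angpt1 in valve interstitial-like and Angpt2 in smooth muscle-like nuclei, while the Vegfc levels of fibroblast-like, adipocyte-like, valve interstitial-like and endothelial-like nuclei overlap.

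Angpt1, the activating ligand of TEK, was highest in valve interstitial-like nuclei (1409), at 361, 273 and 349 CPM, and the highest pool value of any other class was 195 CPM. Cardiomyocyte-like nuclei followed, at 90.8, 169 and 195 CPM, overlapping the adipocyte-like class (128, 62.0 and 66.3 CPM). In the fit without the erythroid-like sums Angpt1 was higher in valve interstitial-like nuclei by 3.25 (SE 0.18, edgeR adjusted p = 9.17e-16) and in cardiomyocyte-like nuclei by 2.31 (SE 0.19, adjusted p = 2.85e-12), and with those sums by 4.14 and 3.20. A UMI was present in 17.3% ± 4.09 of thinned valve interstitial-like nuclei (31.4% ± 2.52 unthinned), against 3.88% ± 0.497 of endothelial-like nuclei (11.1% ± 1.90 unthinned). The cluster led by Rmst and Rnf43 (471 nuclei) stood at 688, 553 and 639 CPM and that led by Ctnna2 and Abi3bp (938 nuclei) at 136, 116 and 162 CPM, without overlap.

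Angpt2, the context-dependent ligand of TEK, was highest in smooth muscle-like nuclei (2497), at 82.1, 119.5 and 112 CPM, above every pool of the other classes, of which lymphatic endothelial-like nuclei (52.5, 78.1 and 49.0 CPM) came next. Without the erythroid-like sums it was higher in smooth muscle-like nuclei by 2.45 (SE 0.18, edgeR adjusted p = 3.97e-13) and in fibroblast-like nuclei by 0.94 (SE 0.23, adjusted p = 1.97e-03), and with those sums by 3.23 and 1.76. In lymphatic nuclei the difference was 1.44 (SE 0.39, adjusted p = 5.41e-03) without those sums and 2.22 (SE 0.56, adjusted p = 2.84e-03) with them, and the second call was lost without pool 2 (1.92, adjusted p = 0.0854).

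The smooth muscle-like cluster led by Clca3a2 and Pi15 (1126 nuclei) held 133, 178 and 163 CPM of Angpt2 and that led by Ptprz1 and Mylk4 (1371 nuclei) 50.0, 60.8 and 58.6 CPM. A UMI was found in 9.04% ± 1.68 of thinned smooth muscle-like nuclei (23.4% ± 2.73 unthinned) and in 1.03% ± 0.710 of cardiomyocyte-like nuclei (4.26% ± 2.34 unthinned). The class mean of 104 ± 19.7 CPM moved to 62.5 CPM with a 10% mitochondrial limit, 65.3 CPM with doublets kept and 69.4 CPM with a 500 UMI minimum. In these settings a cluster led by Clca3a2 and Pi15, of 1419, 622 and 770 nuclei, was unnamed and not in the class. A cluster so led was also unnamed at resolution 0.5 (1211 nuclei), where Angpt2 differed from the mean of the other classes by 2.73. The part of these clusters in the shifts of the class mean was not tested. Angpt2 overlaps Mcph1 in the annotation, and whether counting used strand is not given in the sources used here. Mcph1 stood at 71.1 ± 9.36 CPM in smooth muscle-like and 242 ± 52.1 CPM in adipocyte-like nuclei, where Angpt2 was 29.5 ± 13.7 CPM.

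**Figure D5:**
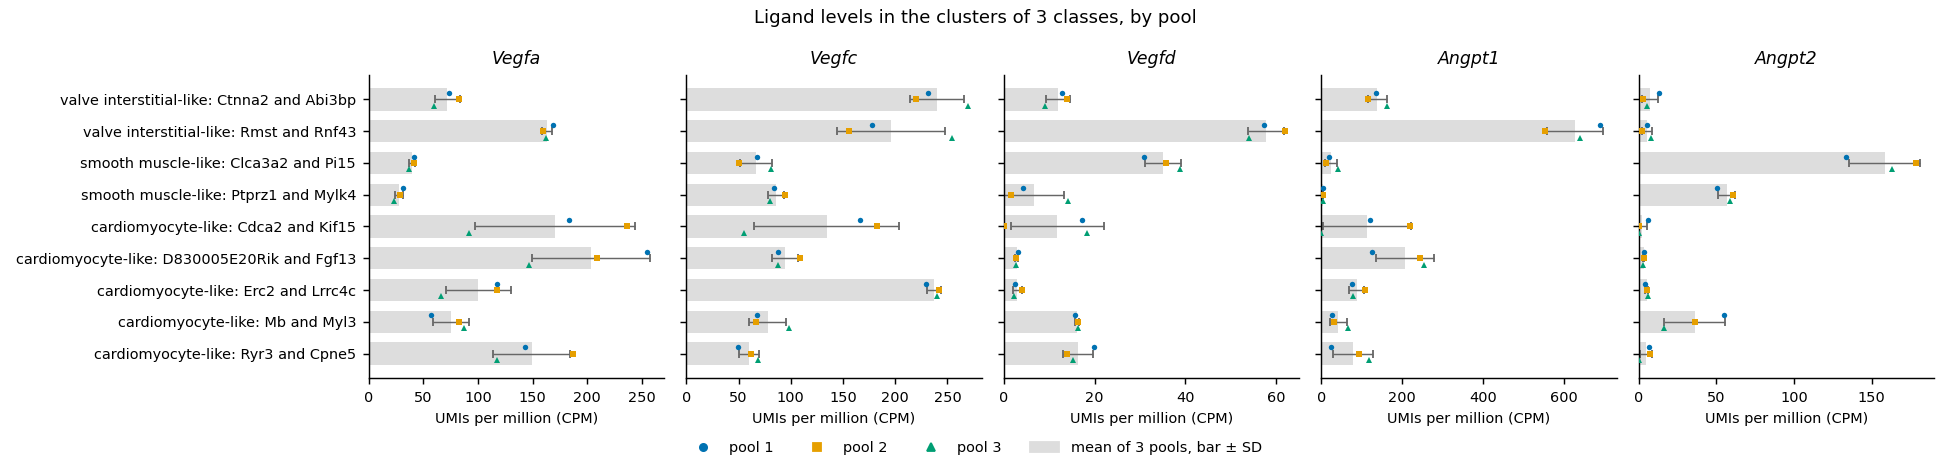
Level of each ligand (CPM of the cluster, linear axis from 0) in the clusters of the valve interstitial-like, smooth muscle-like and cardiomyocyte-like classes, each named by its leading genes; symbols are the 3 pools, grey bars their mean and whiskers 1 SD, drawn no lower than 0. Angpt1 is highest in the valve interstitial-like cluster led by Rmst (688, 553 and 639 CPM) and Angpt2 in the smooth muscle-like cluster led by Clca3a2 (133, 178 and 163 CPM).

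Of a list of 21 further genes of these pathways (co-receptors, ligand-processing factors, targets and oxygen sensors), 18 were tested over the classes. In endothelial-like against non-endothelial nuclei 9 were higher and 1 lower, while 22% of all genes were higher and 8.45% lower, and without the erythroid-like sums 10 and 3, while 22.9% of all genes were higher and 18% lower. Nos3, the endothelial nitric oxide synthase, differed by 4.70, Aplnr, the apelin receptor, by 4.58, Ptprb, a phosphatase that acts on TEK, by 4.13 and Dll4, a Notch ligand, by 4.05; Svep1, a matrix protein needed for lymphatic growth, was lower, at −1.80. Between lymphatic and endothelial-like nuclei 4 were higher and 5 lower, while 6.32% of all genes were higher and 8.29% lower. Here the neuropilins, co-receptors of VEGFs, parted. Nrp2 was at 1145, 1490.0 and 1170.1 CPM in lymphatic against 67.8, 63.7 and 76.7 CPM in endothelial-like nuclei, a difference of 4.10 (SE 0.22, edgeR adjusted p = 6.25e-18), and Nrp1 at 41.3, 109 and 224 CPM against 1428, 1321 and 1464 CPM, a difference of −3.74 (SE 0.28, adjusted p = 1.09e-13).

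In the capillary-like subset 9 of the 17 genes of the list tested there were higher and 1 lower (15.6% and 9.65% of all genes), with Aplnr at 6.69, Nrp2 at 4.99 and Apln at 4.72. In the arterial-like subset 5 were higher and 2 lower (12.6% and 10.4%), among them Dll4 (2.56), Epas1 (2.03), Ptprb (1.32) and Nrp2 (−4.27). In the subset led by Dlgap2 and Cntnap5a 0 were higher and 9 lower (11.3% and 11.2%). Outside the endothelium, Ptprb was higher in valve interstitial-like nuclei by 1.90 (SE 0.19, edgeR adjusted p = 1.47e-10), at 335, 375 and 387 CPM, and Egln3, an oxygen-sensing hydroxylase, by 3.14. Ccbe1, which acts with ADAMTS3 in the processing of VEGF-C, was higher in fibroblast-like (4.12) and mesothelial-like nuclei (4.04), Adamts3 in cardiomyocyte-like nuclei (3.22) and Svep1 in fibroblast-like nuclei (3.72).

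For each of the 10 genes, the genes with the most similar log2 CPM over the 33 class sums were found among the 13566 tested, as a description over sums that share pools and depth. With Pearson r in brackets, Tie1 was closest to Egfl7 (0.96), Ctla2a (0.94) and Cldn5 (0.93), Flt1 to Smoc1 (0.88), Tek to Mest (0.86), Kdr to Lbp (0.88) and Flt4 to Gm32727 (0.91), an annotated gene that overlaps Kdr. Vegfc was closest to Epha7 (0.94), Vegfd to Samd14 (0.93), Vegfa to Dhx35 (0.92), Angpt1 to Tbx20 (0.92) and Angpt2 to Fam20a (0.89). The second gene for Angpt1 was Gm41313 (0.90), which overlaps it, and Flt1 and Vegfc overlap Gm35383 and Gm33153; without strand, reads of such pairs cannot be told apart. Over the 21 subset sums and 9615 genes, Kdr was closest to Filip1 (0.93), Flt1 to Auts2 (0.88), Flt4 to Wnk1 (0.94), Tek to Cemip2 (0.92) and Tie1 to Adcy6 (0.87).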

How the data were processed

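The authors deposited raw UMI counts for each gene in each nucleus, 1 matrix per pool, from the 10x Multiome kit, from Cell Ranger 7.1.0 as the file headers state; the submitters' processing notes name Cell Ranger 7.0.1 and 7.1.0 and the build GRCm39. The counting strand is not given in the sources used here, and no chromatin accessibility file was used. The 10 genes and the lists were chosen with earlier results of these data known. Nuclei were kept from 1000 UMIs and up to 5% mitochondrial UMIs; those with the highest Scrublet scores were left out as doublets, at 0.8% per 1000 deposited nuclei, because the automatic threshold marked none in pools 2 and 3. Clusters were made with scanpy 1.11.5 (2000 variable genes, 30 components, 15 neighbours, Leiden resolution 1, 0.5 for subsets), without the 10 genes, the pathway list, or cycle, sex-linked and mitochondrial genes. A cluster was named where the majority of a class's markers were in at least 10% of its nuclei and at least 2-fold higher. Counts were summed per pool and class or subset with at least 20 nuclei in each pool and tested with edgeR 4.0.16 (TMM, filterByExpr, pool as block), checked on simulated data; DESeq2 1.42.0 was an alternative. Single levels and shares were not tested, since permuting 3 pools against 3 gives an exact two-sided p of at least 0.1 and, within pools, a higher one. The text names the 10 genes, genes of the pathway list, the closest genes by correlation and the leading genes and markers of clusters. The pools' log2 CPM correlated at 0.9838 to 0.9924 and differed beyond sampling noise, so each counts as a sample. Alternatives were other scalings, filters, depth and mitochondrial limits, doublets kept, another resolution, no block and each pool left out; leaving out the erythroid-like sums, the mixed endothelial subset with smooth muscle genes, the Mb cluster or the top 15% of doublet scores, and naming from 3 markers, were chosen after seeing the data.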

Additional observations from a re-analysis of the deposited data

How the results depend on the processing

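The number of the 10 genes called was 6 in endothelial-like against non-endothelial nuclei (6 to 8 over the alternatives), 7 in lymphatic against endothelial-like nuclei (6 to 8), 54 summed over the classes each against the others (36 to 65) and 9 genes were called in at least 1 endothelial subset (7 to 10). The alternatives tested 6 to 10 subsets and not always the same classes, so the ranges over classes and subsets span different numbers of tests. The shares of all genes for those sums were not counted. The 6 calls in endothelial-like nuclei held under every one of the 15 alternatives run. Of 98 single calls, 25 were lost without pool 1, 15 without pool 2 and 11 without pool 3, of which 10, 2 and 9 were against a mean whose erythroid-like sums held no UMI of the gene in the pools kept; 4 of 61 were lost with erythroid-like sums left out, 3 of 56 with doublets kept, 3 of 56 with a 10% mitochondrial limit and 4 of 28 with the top 15% of doublet scores left out. Single subset calls were not run in the settings that clustered the nuclei anew. The nuclei of a pool share a library, so the pool number is the replicate block; without the block 6 calls were lost, with adjusted p-values from 0.0527 to 0.120, and the other calls held. In cardiomyocyte-like nuclei Flt4 ranged from −1.53 to 0.16 with 1 pool left out, the last without pool 3, and it turned to 0.0537 in the Enox1 and Grid1 subset without the top doublet scores; the cause was not tested. Without thinning, the shares of nuclei with a UMI were 71.7% (Kdr) and 79.7% (Flt4) of lymphatic, 81.2% (Flt1), 92.3% (Tek) and 74.4% (Tie1) of endothelial-like, 48.0% (Vegfa) of cardiomyocyte-like, 42.8% (Vegfc) and 13.6% (Vegfd) of fibroblast-like, 31.4% (Angpt1) of valve interstitial-like and 23.4% (Angpt2) of smooth muscle-like nuclei, each nucleus then keeping all its UMIs. With a 10% mitochondrial limit Flt1 moved to 49.9% of nuclei and 886 CPM. Angpt2 in smooth muscle-like nuclei moved to 5.92% and 62.5 CPM there, and a cluster led by Clca3a2 and Pi15 was unnamed. With doublets kept Flt4 moved to 35.3%, Vegfc to 18.5%, Tek to 1086 CPM and Angpt2 to 6.29% and 65.3 CPM. With a 500 UMI minimum Angpt2 moved to 69.4 CPM. A cluster so led was unnamed in both of these settings too. The cause of the shifts was not tested. Counts over all genes moved by over 1.5 times without pool 1 in 5 contrasts (to 947 to 4024 genes from 1424 to 6362) between classes and 7 contrasts (to 1127 to 1628 genes from 1975 to 3025) between subsets, and without pool 2 in 7 contrasts (to 934 to 2362 genes from 1424 to 3656) between classes; naming clusters from 3 markers moved that of pericyte-like nuclei from 1424 to 2375.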

Other observations

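The 3 unnamed clusters entered no comparison, except under naming from 3 markers. There the cluster led by Hgf and Sorcs3 was named pericyte-like and that led by D030068K23Rik and Neil3 smooth muscle-like. The cluster led by Hgf and Sorcs3 (489 nuclei) held Angpt1 at 29.1, 5.90 and 23.2 CPM, Angpt2 at 90.9, 88.5 and 104 CPM, Vegfc at 153, 171 and 202 CPM and Vegfd at 17.5, 8.85 and 41.7 CPM in pools 1, 2 and 3. In the cluster led by D030068K23Rik and Neil3 (344 nuclei), Angpt2 was at 35.6, 43.1 and 53.2 CPM and Vegfa at 26.1, 33.2 and 10.6 CPM. In the cluster led by Mylk4 and Kcnab1 (281 nuclei, median 12805 UMIs, the deepest of the 28 clusters), Tek was at 153, 125 and 210.4 CPM, Flt1 at 124, 115 and 176 CPM and Angpt2 at 48.9, 64.9 and 38.2 CPM.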
